A study of Mus musculus with 7 samples.

Results

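PU.1 and MITF binding was followed around 10 genes of the adhesion and actin machinery of the OC, Itgb3, Itgav, Itgb2, Itgam, Src, Ptk2b, Pxn, Vav3, Scin and Gsn. A ChIP-Seq peak was assigned to a gene if its center lay in the gene or within 50 kb of either end on the mm9 build, and the 10 windows did not overlap. They held 204 of the 76243 PU.1 peaks of myeloid precursors (MPs), 178 of 71941 after 36 h of RANKL and 190 of 77072 in OCs, and 17 of 5413, 11 of 3540 and 16 of 4443 MITF peaks at the same times. The cells were bone marrow myeloid cells of C57BLACK6 mice aged 4 to 6 weeks, with no altered gene named in the labels, cultured for 3 days with 50 ng/ml CSF1 (MPs) and then with CSF1 and 100 ng/ml RANKL for 36 h or 72 h (OCs). Each factor was precipitated once at each of the 3 times with 5 µg of antibody, and non-specific IgG once from MPs, which gives 7 libraries with 1 library per condition. No difference in time therefore has a replicate check, and every interval and test covers counting error between single libraries. Whether a library pooled several mice is not given in the sources used here, and the lists hold no expression values against which the cell type could be checked.

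Resorbing OCs attach to bone through podosomes, actin-rich adhesion points that gather into a sealing ring. The integrin alphavbeta3 (Itgav and Itgb3) binds matrix proteins there and signals through the kinases Src and Pyk2 (Ptk2b), the adaptor paxillin (Pxn) and the Rac exchange factor Vav3. The beta2 integrin CD11b/CD18 (Itgam and Itgb2) is typical of monocytes and macrophages, and scinderin (Scin) and gelsolin (Gsn) sever and cap actin filaments. PU.1 is the ETS family factor of the myeloid lineage and binds purine-rich motifs around GGAA, and MITF is a basic helix-loop-helix factor that binds E-box motifs and acts with PU.1 in OCs.

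The bound sequences of Itgb3 and Src are shown first, since the 2 genes carried PU.1 peaks but no MITF peak. Overlapping PU.1 peaks of the 3 times were joined into sites, numbered along each gene from its 5′ side, and each sequence is the OC peak of 151 bases, as given by the mm9 reference on the plus strand. Capitals mark the ETS motif GAGGAA and 2 E-boxes, one spelled CACGTG and the other CATGTG, on either strand. Itgb3-16 (chr11:104508930-104509080, intron) and Src-12 (chr2:157326264-157326414, downstream of the gene) were the highest PU.1 sites of the 2 loci, and Itgb3-6 (chr11:104470728-104470878), intronic, lay nearest to a start site of Itgb3.
Itgb3-16: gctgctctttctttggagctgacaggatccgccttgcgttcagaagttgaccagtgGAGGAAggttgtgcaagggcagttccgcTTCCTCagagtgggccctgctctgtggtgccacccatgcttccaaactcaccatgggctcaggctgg
Itgb3-6: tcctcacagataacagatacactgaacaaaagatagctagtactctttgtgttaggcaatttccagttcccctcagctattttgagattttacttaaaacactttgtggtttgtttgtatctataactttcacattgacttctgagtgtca
Src-12: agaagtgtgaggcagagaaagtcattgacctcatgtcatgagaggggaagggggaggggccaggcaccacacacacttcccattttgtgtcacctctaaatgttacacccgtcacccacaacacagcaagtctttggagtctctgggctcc
Itgb3-16 held GAGGAA 2 times, and neither Itgb3-6 nor Src-12 held any of the 3 motifs in its 151 bases. Both contained the shorter core GGAA, read on either strand, which was not marked.

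Of 24 sites with a MITF peak at any time, the 6 at which both factors had a peak at all 3 times are shown next. They were singled out after their values had been seen. Itgb2-22 (chr10:77076402-77076552) lay in the neighbouring gene Sumo3 and Itgam-19 (chr7:135277274-135277424) in Itgax, a neighbouring beta2 integrin alpha chain. Itgam-11 (chr7:135209213-135209363), Ptk2b-22 (chr14:66842614-66842764) and Pxn-9 (chr5:115966213-115966363) were intronic, and Vav3-3 (chr3:109138511-109138661) lay upstream of Vav3.
Itgb2-22: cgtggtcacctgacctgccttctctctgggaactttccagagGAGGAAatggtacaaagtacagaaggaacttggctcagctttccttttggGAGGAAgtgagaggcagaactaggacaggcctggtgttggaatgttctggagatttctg
Itgam-11: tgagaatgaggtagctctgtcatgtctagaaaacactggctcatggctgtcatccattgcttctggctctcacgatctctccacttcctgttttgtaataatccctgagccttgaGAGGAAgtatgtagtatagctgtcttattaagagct
Itgam-19: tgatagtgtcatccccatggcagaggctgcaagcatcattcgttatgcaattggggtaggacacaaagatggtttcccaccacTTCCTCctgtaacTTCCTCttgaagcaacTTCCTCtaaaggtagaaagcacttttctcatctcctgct
Ptk2b-22: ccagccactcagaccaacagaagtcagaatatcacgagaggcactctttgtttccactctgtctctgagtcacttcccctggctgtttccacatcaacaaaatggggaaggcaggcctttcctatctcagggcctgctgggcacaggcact
Pxn-9: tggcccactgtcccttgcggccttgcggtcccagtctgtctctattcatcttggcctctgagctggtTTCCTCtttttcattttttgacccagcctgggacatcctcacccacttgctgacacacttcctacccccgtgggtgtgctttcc
Vav3-3: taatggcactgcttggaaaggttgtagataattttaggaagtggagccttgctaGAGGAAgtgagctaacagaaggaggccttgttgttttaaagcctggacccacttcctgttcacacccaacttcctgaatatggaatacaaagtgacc
GAGGAA occurred 3 times in Itgam-19, 2 times in Itgb2-22 and 1 time each in Itgam-11, Pxn-9 and Vav3-3. Ptk2b-22 held none of the 3 motifs and held 1 TGANTCA, the motif of AP-1 factors. It also contained the shorter core GGAA, which was not marked. None of the 6 held CACGTG or CATGTG in its 151 bases, though Vav3-3 had CATGTG within 100 bp of the site center. The looser E-box CANNTG occurred 1 time each in Itgb2-22, Itgam-19 and Pxn-9.

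Across all 238 PU.1 sites of the 10 genes the motif content was close to that of PU.1 sites elsewhere. Within 100 bp of the site center GAGGAA was present in 59.7% of sites (95% Wilson interval 53.3 to 65.7), against 57.1% of the 102280 PU.1 sites on the main chromosomes. The longer GAGGAAGT, which contains GAGGAA, was present in 18.5% (14.1 to 23.9) against 21.7%, and TGANTCA in 14.3% (10.4 to 19.3) against 11.5%. Of the E-boxes, CANNTG includes the other 2 and was present in 64.7% against 63%, CATGTG in 14.7% against 14.5% and CACGTG in 2.52% (1.16 to 5.39) against 3.24%. Of the 24 sites with a MITF peak at any time, 19 held GAGGAA (79.2%, 59.5 to 90.8), compared with 123 of 214 without one (57.5%, 50.8 to 63.9). Over all PU.1 sites the shares with GAGGAA were 70.3% with a MITF peak and 56.1% without one. CATGTG was held by 3 of the 24 (12.5%, 4.34 to 31), and by 14.7% of all PU.1 sites with a MITF peak. All motifs were searched on both strands.

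All 10 genes had PU.1 peaks at every time, and their number differed more between genes than between times. Of all protein-coding genes 83.8%, 83.3% and 83.8% had a PU.1 peak in MPs, at 36 h and in OCs. The score given below is the Peak Score of the lists, which HOMER computes from the tags of a peak and the size of the library, and the tags themselves were recovered from it. Vav3, the longest of the genes, had 38, 31 and 33 PU.1 peaks in MPs, at 36 h and in OCs, and Ptk2b had 32, 29 and 35. Scin had the fewest, with 9, 8 and 7. Per 100 kb of window the median over the 10 genes was 10.19, 8.94 and 10.06 peaks, compared with 4.72, 4.64 and 4.85 over all 22367 protein-coding genes. The median PU.1 score of the peaks was 29.85, 28.1 and 33.8, and that of the whole lists 23.9, 23.7 and 23.5. The IgG library, with 349 peaks in all, had 0 peaks in the 10 windows, and only 1.54% of all protein-coding genes had one.

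**Figure D1:**
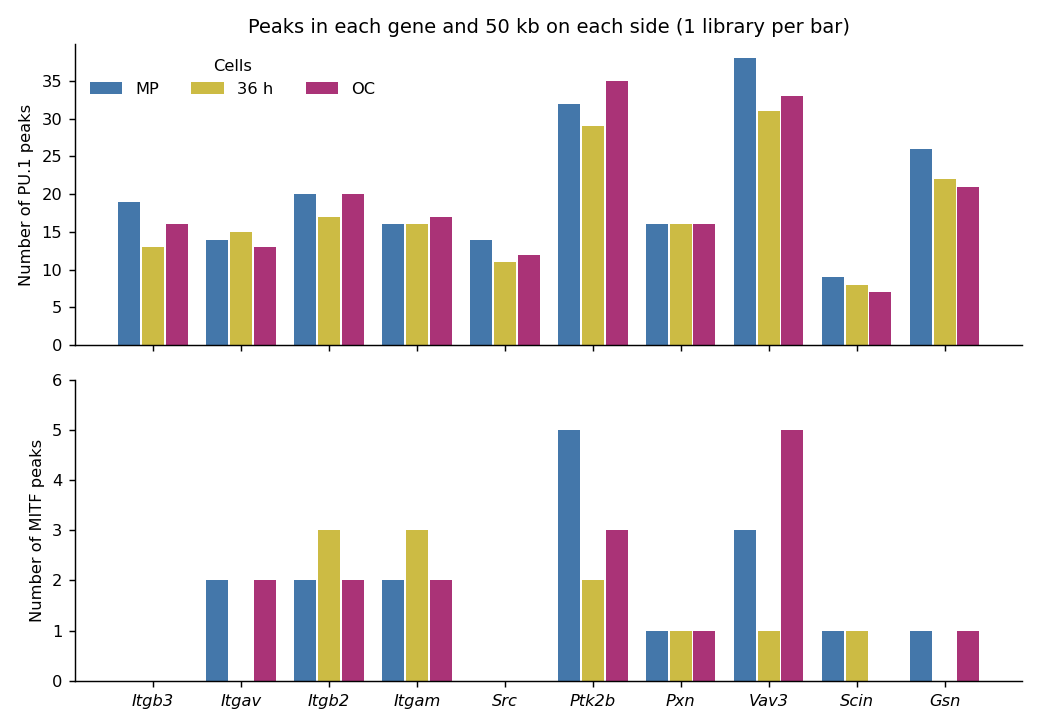
Number of PU.1 peaks (upper panel) and MITF peaks (lower panel) in each gene and 50 kb on each side, with 1 bar per library for MPs, 36 h and OCs. Every gene had PU.1 peaks at each time, from 7 (Scin, OCs) to 38 (Vav3, MPs), and Itgb3 and Src had 0 MITF peaks.

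Most of the sites, and every strong site of OCs, were already bound in MPs. Of the 238 sites 150 (63%, 56.7 to 68.9) had a PU.1 peak at all 3 times, against 50.5% of all 102376 PU.1 sites. Of the OC peaks 170 of 190 (89.5%, with 78% for the whole list) overlapped a MP peak and 156 of 190 (82.1%, whole list 75.3%) a 36 h peak. Of the 36 h peaks 158 of 178 (88.8%, whole list 78.3%) overlapped a MP peak and 156 of 178 (87.6%, whole list 80.6%) an OC peak. Of the MP peaks 158 of 204 (77.5%, whole list 73.9%) overlapped a 36 h peak and 170 of 204 (83.3%, whole list 78.8%) an OC peak. The 69 OC peaks with 30 tags or more all overlapped a MP peak, and 67 of the 69 a 36 h peak. Of such peaks in the whole list 98.8% and 97.5% did, so the 10 genes were near the whole list here. For weak OC peaks of up to 11 tags the share with a MP peak was 71.2% (57.7 to 81.7), against 50.9% of such peaks in the whole list.

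Sites called at a single time were mostly weak. The 26 sites called in MPs alone (10.9% of the 238, against 11.1% of all PU.1 sites) had 6 to 19 tags in the peak with a median of 7. The 14 called at 36 h alone (5.88% against 9.03%) had 7 to 22 tags and the 14 called in OCs alone (5.88% against 10.3%) had 7 to 14, both with a median of 8, while the lowest peak of each PU.1 list had 6 or 7 tags. The highest were Itgam-18 at 36 h, with 22 tags and a score of 32.5, and Itgav-11 in MPs, with 19 tags and a score of 32.4, which are above the median score of the whole lists. A site with no peak at a time is one below this floor, not one shown to be unbound. The OC-only sites were 5 in Ptk2b, 2 in Itgam, 0 in Gsn and 1 in each of the other 7 genes. The highest OC-only site, Ptk2b-26 in an intron, had 14 tags.

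A further 20 sites (8.4%, against 8.27% of all PU.1 sites) had peaks in MPs and in OCs but not at 36 h. The highest was Pxn-10, with 48 tags in MPs and 49 in OCs, which lies beside the much higher Pxn-9. The closest neighbouring peaks of the PU.1 36 h list were 444 bp apart, against 370 bp in the MP and OC lists, and 989 neighbouring pairs lay within 600 bp of each other at 36 h against 2484 in MPs and 2516 in OCs. Of the 20 sites 3 had a higher site within 600 bp (15%, 5.24 to 36), compared with 2 of the 150 sites called at all times (1.33%, 0.366 to 4.73). Over all PU.1 sites these shares were 11.8% and 1.36%, so the 10 genes were near the whole lists. The part of this spacing in the missing 36 h peaks was not tested.

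The sites lay mostly inside the genes and away from their start sites. Of the 238 sites 131 (55%) were intronic, 7 exonic, 56 upstream and 16 downstream of the gene, and 28 lay within a neighbouring gene. In the long genes Vav3 and Ptk2b 38 of 42 and 29 of 39 sites were intronic, compared with 5 of 29 in Gsn and 3 of 11 in Scin. These shares were not computed over all PU.1 sites. Only 10 sites (4.2%) were within 1000 bp of a start site of their gene. Sites at the start itself were found in Itgav (Itgav-10, 26 bp upstream), Itgb2 (Itgb2-6, 65 bp into the gene), Itgam (Itgam-9, 15 bp into it), Ptk2b (Ptk2b-6, 2 bp into it) and Gsn (Gsn-15, 172 bp upstream). In Itgb3, Src, Pxn and Vav3 no site came within 1000 bp of a start site.

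At none of the sites was a change in PU.1 tags called against the median ratio, and such calls were rare over the whole lists as well. For overlapping peaks of 2 libraries, the split of their joint tags was set against the median ratio over the genome with an exact binomial test, and a pair was called at an adjusted p below 0.05 (Benjamini-Hochberg over all pairs) with at least a 2-fold change. From MPs to 36 h 0 of 158 pairs were called, against 1.05% of all 56335 pairs; from 36 h to OCs 0 of 156, against 0.0707% of 58008; and from MPs to OCs 0 of 170, against 0.156% of 60099. By the same exact test 14 of 158, 13 of 156 and 11 of 170 pairs had an unadjusted p below 0.05, and over all pairs of the genome the shares were 10.9%, 6.45% and 7.84%. The median tag ratio from MPs to 36 h was 1.0588, and the ratio of library sizes 1.1540, so log2 changes to 36 h are lower under the latter. With it 2 pairs of the 10 genes were called, and 1005 of all 56335. The PU.1 peaks of the 36 h list had a median width of 190 bp, against 150 bp in MPs and in OCs. A difference in PU.1 tags at 36 h, in any of the genes below, and this difference in the lists cannot be told apart. With no test, 6 pairs were at least 2-fold higher and 6 at least 2-fold lower from MPs to 36 h (4.02% and 3.41% over all pairs), 3 and 3 from 36 h to OCs (2.01% and 2.61%), and 6 and 6 from MPs to OCs (3% and 2.38%). The median log2 fold change of the pairs was 0.01, -0.00 and 0.02. These tests compare libraries and not conditions, and pairs with few tags could not have been called at a 2-fold difference.

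**Figure D2:**
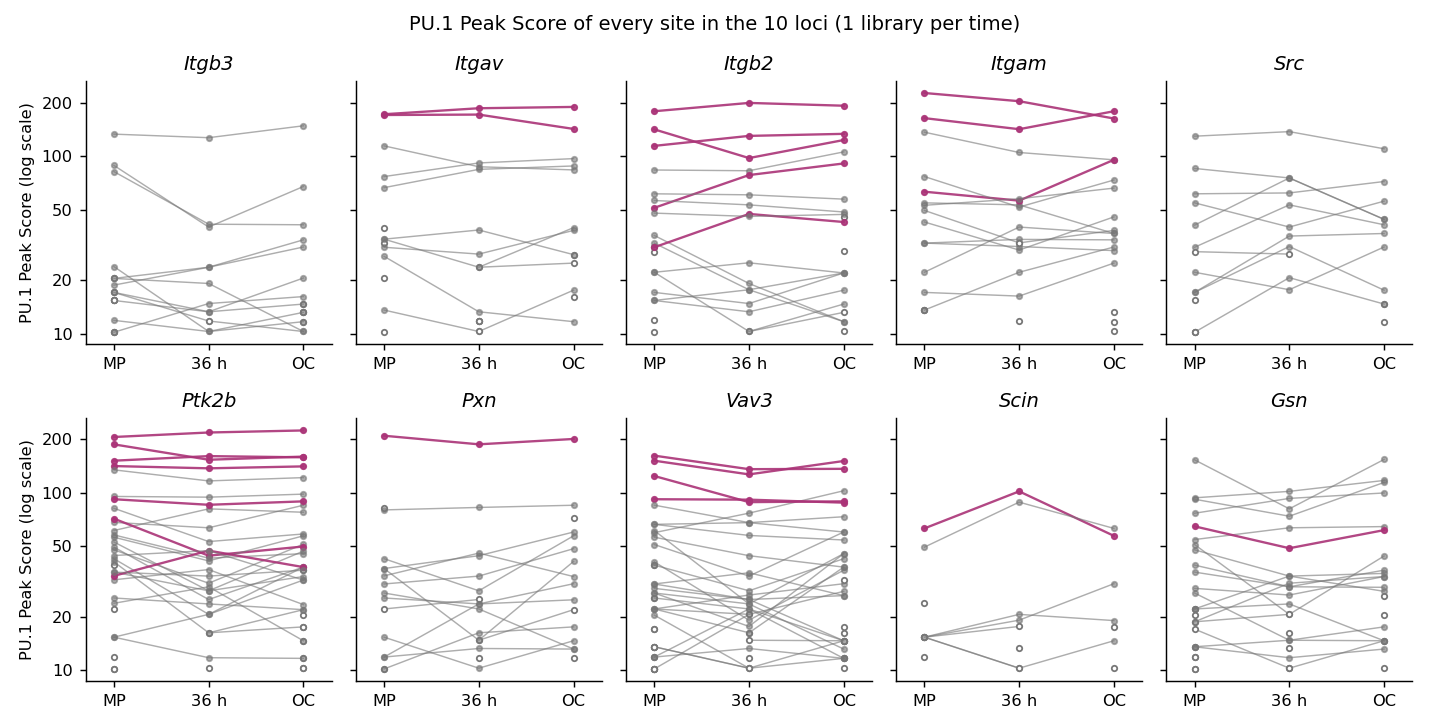
PU.1 Peak Score (log scale) of the 238 sites by gene in MPs, at 36 h and in OCs, with 1 library per time. Lines join a site's peaks, open points are sites without a peak at all 3 times, and red marks the 24 sites with a MITF peak at any time, all of which had a PU.1 peak at every time.

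Among the integrins, the highest site of Itgb3, the beta3 chain, had similar tags at all times, and 2 other intronic sites had fewer tags after RANKL. Itgb3-16, in an intron 39636 bp from the 5′ end, had 78, 86 and 101 tags in MPs, at 36 h and in OCs. Itgb3-6, in an intron 1420 bp from the 5′ end, had 52, 27 and 46 tags (scores 88.7, 39.9 and 67.5), so its lowest value was that at 36 h. Its log2 fold change from MPs to 36 h was -1.03 (95% interval -1.76 to -0.33, adjusted p = 0.0983 by the exact binomial test). With the ratio of library sizes in place of the median ratio the change was -1.15 and passed both limits, so this call depends on how the libraries are scaled. Itgb3-13, also intronic, had 48, 28 and 28 tags, with a log2 fold change of -0.97 (-1.70 to -0.27) from MPs to OCs and an adjusted p of 0.293 by the exact binomial test.

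The site just upstream of Itgb3 went the other way in its counts, at low depth. Itgb3-5, centered 1565 bp upstream of the gene, had 12, 16 and 23 tags and a log2 fold change of 0.75 from MPs to OCs, the highest in the locus. It is the site that the study amplified by ChIP-qPCR, since the primers listed for Itgb3 matched chr11:104467729-104467800, within this site. The amplified segment is shown with GAGGAA in capitals on either strand.
Itgb3 segment: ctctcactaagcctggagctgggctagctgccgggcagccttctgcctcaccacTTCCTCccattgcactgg
Itgb3 had 19, 13 and 16 PU.1 peaks at the 3 times and 12 sites in common, whose summed tags were 269, 236 and 285. The median tag ratio of all pairs from MPs to OCs was 1.1429. Relative to the median pair the log2 ratio of the sums was -0.11 (-0.35 to 0.14) from MPs to OCs. From MPs to 36 h it was -0.27 (-0.53 to -0.01) and from 36 h to OCs 0.16 (-0.10 to 0.41).

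Itgav, the alphav chain that pairs with beta3, had its highest sites in introns. Itgav-12, 5191 bp from the 5′ end, had 101, 126 and 129 PU.1 tags, and Itgav-14, 20084 bp from it, had 100, 116 and 97. At the start of the gene Itgav-10 had 39, 57 and 60 tags, with a log2 fold change of 0.43 from MPs to OCs, the largest of the locus among pairs with at least 30 tags in sum, and not called. Unlike Itgb3, Itgav had MITF peaks, and both lay on these 2 intronic sites, with 18 and 14 MITF tags in MPs, 9 and 9 in OCs, and no peak at 36 h.

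The beta2 pair had 20, 17 and 20 PU.1 peaks for Itgb2 and 16, 16 and 17 for Itgam. The start-site peak of Itgb2, the beta2 chain, had more tags after RANKL. Itgb2-6 had 30, 53 and 62 tags, with a log2 fold change of 0.85 (0.20 to 1.53) from MPs to OCs and an adjusted p of 0.345 by the exact binomial test. Itgb2-2, within a neighbouring gene 20450 bp upstream, had 21, 13 and 8 tags (log2 fold change -1.58, -2.97 to -0.35). For Itgam, the alphaM chain, Itgam-8, 3384 bp upstream, had 37, 38 and 65 tags (0.62, 0.02 to 1.24), and the highest site, Itgam-19, had 133, 138 and 111 (-0.45, -0.83 to -0.08). Itgam-19 and Itgam-8 thus differed in direction within the locus, and neither change was called. Itgam-19 lies within Itgax, and the lists do not say which gene it serves.

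**Figure D3:**
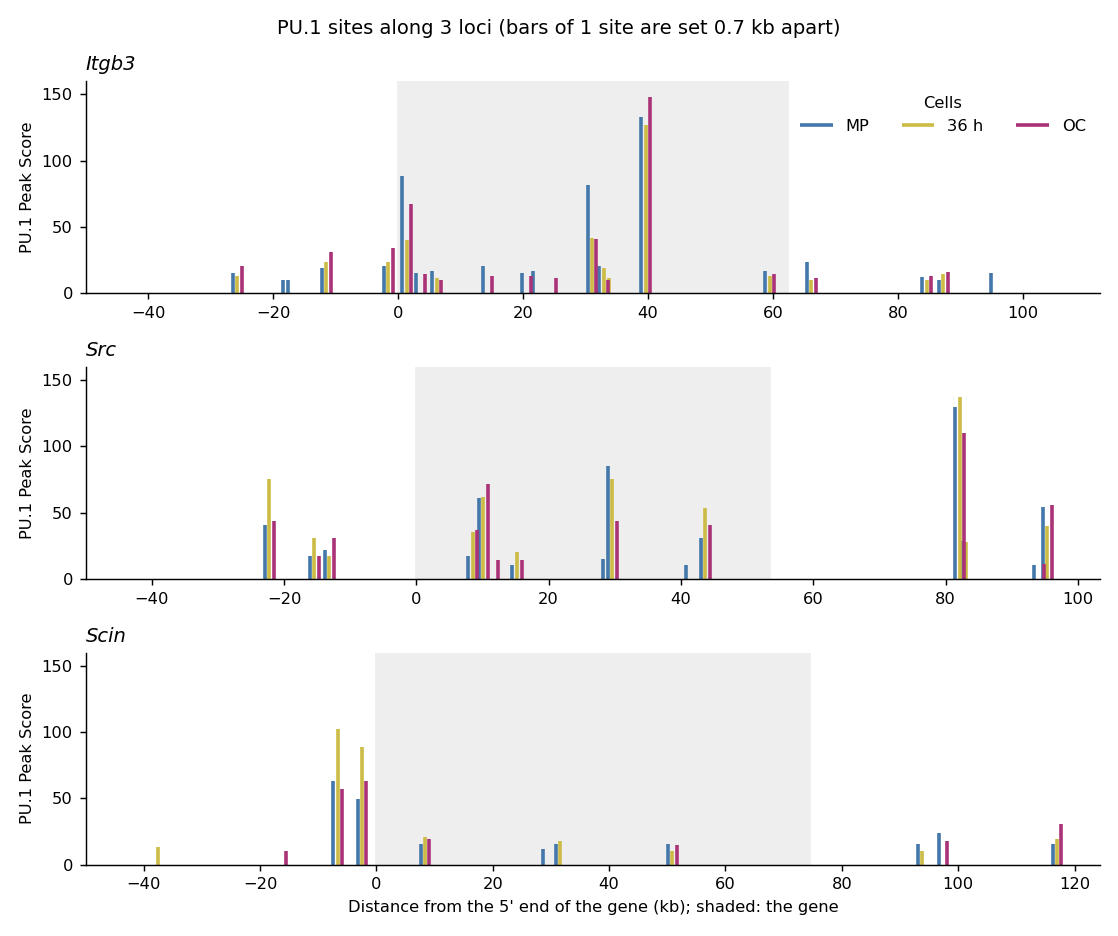
PU.1 Peak Score of the sites of Itgb3, Src and Scin against the distance from the 5′ end of the gene (kb), with 1 bar per library, drawn 0.7 kb apart within a site, and the gene shaded. In Itgb3 the highest bars are those of Itgb3-16, in Src those of Src-12 downstream of the gene, and in Scin those of the upstream sites Scin-3 and Scin-4, which are highest at 36 h.

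Src, the kinase that OCs need for the ruffled border, had several sites with more PU.1 tags in the wider peaks of 36 h (median 190 bp) than in those of MPs (150 bp). Src-1, within the neighbouring gene Manbal 22240 bp upstream, had 24, 51 and 30 tags, which is a log2 fold change of 1.01 (0.28 to 1.77, adjusted p = 0.153) to 36 h and -0.88 (-1.58 to -0.20, adjusted p = 0.458) from there to OCs by the exact binomial test. Src-11, intronic, had 18, 36 and 28 tags, and Src-2, upstream, had 10, 21 and 12. Both therefore also had their highest count at 36 h. Other sites of Src did not, as the counts of Src-5 were 36, 42 and 49 and those of Src-15 were 32, 27 and 38. Src-9, intronic, had its lowest count in OCs, with 50, 51 and 30 tags (from MPs to OCs -0.93, -1.63 to -0.25), and the highest site, Src-12, had 76, 93 and 75. Over the 10 sites of Src called at every time the tags summed to 275, 371 and 318. Relative to the median pair the sum had a log2 ratio of 0.35 (0.12 to 0.58) from MPs to 36 h, -0.34 (-0.56 to -0.12) from 36 h to OCs and 0.02 (-0.22 to 0.26) from MPs to OCs. With the ratio of library sizes the values to and from 36 h were 0.23 and -0.23. Such intervals, here and for the other genes, pool the tags of a gene's sites and cover counting error only. Sums of this kind were not computed over all genes.

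Ptk2b, the kinase Pyk2, had the highest PU.1 score of OCs among the 10 genes and similar tags over time at its main sites. Ptk2b-22, in an intron 57195 bp from the 5′ end, had 121, 148 and 153 tags (scores 206.4, 218.8 and 224.7), and the start-site peak Ptk2b-6 had 56, 64 and 67. Ptk2b-27, intronic, had 110, 104 and 109. The summed tags of its 27 common sites were 1116, 1147 and 1233, and the log2 ratio from MPs to OCs relative to the median pair was -0.05 (-0.17 to 0.07).

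The adaptors had similar tags over time at their highest sites. Pxn-9, in the paxillin gene 9591 bp from the 5′ end, had 123, 127 and 137 tags. In Vav3, Vav3-4, intronic and 1041 bp from the 5′ end, had 95, 92 and 93 tags and Vav3-3, 4992 bp upstream, had 89, 86 and 103. Within Vav3 the highest log2 fold change from MPs to OCs among pairs with at least 30 tags in sum was that of the intronic Vav3-21, with 35, 52 and 70 tags (0.81, 0.20 to 1.44, adjusted p = 0.302 by the exact binomial test). The intronic Vav3-37, with 13, 11 and 26 tags, had the same value. Vav3-28, intronic, had 36, 16 and 31 tags and was lowest at 36 h (-1.25, -2.20 to -0.37, adjusted p = 0.119 by the exact binomial test). It passed both limits with the ratio of library sizes, at -1.38.

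The highest sites of the 2 actin-severing genes, both upstream, had opposite courses in their counts at 36 h, a difference that was not tested and that again involves the 190 bp peaks of that list. Scin, which is expressed as OCs form, had its 2 highest sites upstream of the gene and both had their highest count at 36 h. Scin-3, 6680 bp upstream, had 37, 69 and 39 tags, with a log2 fold change of 0.82 (0.22 to 1.43, adjusted p = 0.146) to 36 h and -0.94 (-1.54 to -0.35, adjusted p = 0.236) from 36 h to OCs by the exact binomial test. Scin-4, 2407 bp upstream, had 29, 60 and 43 tags (0.97, 0.30 to 1.66, adjusted p = 0.11 to 36 h by the exact binomial test). The study's primers for Scin matched chr12:40863241-40863304, inside Scin-4, with 1 GAGGAA on the minus strand.
Scin segment: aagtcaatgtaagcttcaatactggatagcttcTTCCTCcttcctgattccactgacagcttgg
In all, the 5 common sites of Scin held 93, 163 and 126 tags, a log2 ratio of 0.73 (0.35 to 1.11) to 36 h and 0.25 (-0.15 to 0.65) from MPs to OCs relative to the median pair.

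Gsn had its lowest count at 36 h at its highest site, while over the locus the tags of MPs and 36 h were close. Gsn-1, 46946 bp upstream, had 90, 55 and 105 tags (scores 153.5, 81.3 and 154.2), with a log2 fold change of -0.79 (-1.30 to -0.29, adjusted p = 0.068) to 36 h and 0.82 (0.33 to 1.32, adjusted p = 0.204) from 36 h to OCs by the exact binomial test. The neighbouring Gsn-2, 44393 bp upstream, had 30, 14 and 30 tags. Nearer to the gene, Gsn-8 had 54, 50 and 78 tags and Gsn-12 had 32, 43 and 44, and in the gene Gsn-17 had 45, 63 and 68. The 17 common sites of Gsn held 502, 496 and 622 tags, a log2 ratio of -0.10 (-0.28 to 0.08) from MPs to 36 h, 0.21 (0.04 to 0.38) from 36 h to OCs and 0.12 (-0.06 to 0.29) from MPs to OCs relative to the median pair. The ChIP-qPCR sites Itgb3-5 and Scin-4 both had fewer tags in MPs than in OCs, and neither difference was called. The study took its ChIP-qPCR targets from its own ChIP-Seq results, so they were not chosen independently of these libraries.

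**Figure D4:**
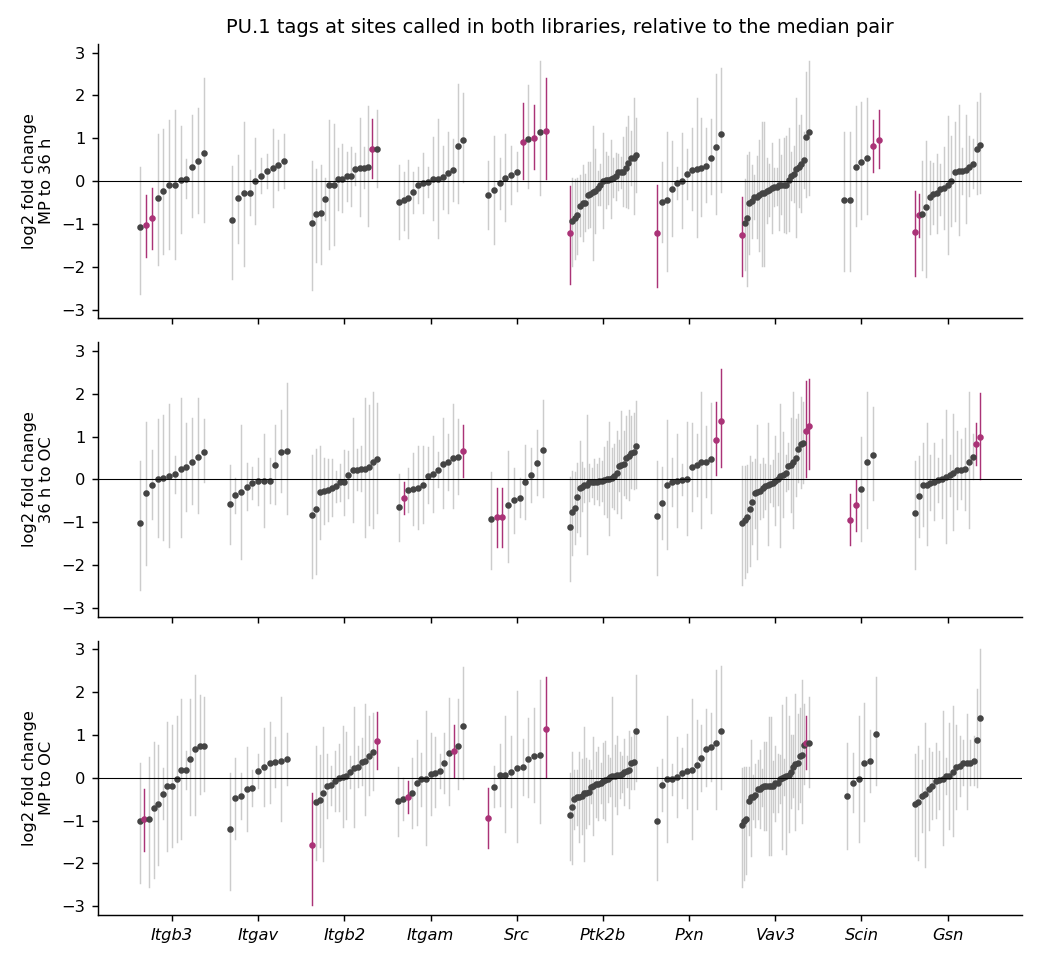
log2 fold change of PU.1 tags with its 95% counting interval for every site called in both libraries, relative to the median pair of the genome, by gene and for the 3 comparisons. Red marks intervals that leave out 0. In Src and Scin these lie above 0 from MPs to 36 h and below 0 from 36 h to OCs, and in Gsn the reverse.

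MITF peaks were fewer and lay mostly at PU.1 sites of high score, as in the whole lists. The 10 windows held 44 MITF peaks over the 3 lists, of which 43 overlapped a PU.1 peak from cells of that time, with 17 of 17 in MPs (whole list 97.9%), 11 of 11 at 36 h (93.8%) and 15 of 16 in OCs (93.3%). The exception was an OC peak of 8 tags in an intron of Vav3. Conversely a MITF peak overlapped 8.33%, 6.18% and 7.89% of the PU.1 peaks, against 6.95%, 4.62% and 5.38% of the whole PU.1 lists. The median PU.1 score at peaks with MITF was 152, 142 and 151, and at peaks without it 27.3, 26.6 and 30.8, as in the whole lists (148, 139 and 137 against 22.2, 22.2 and 22). Of the 26 sites with a PU.1 score of at least 100 at any time, 16 had a MITF peak. The share among all PU.1 sites of such a score was not computed.

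MITF peaks were present in 8, 6 and 7 of the 10 genes at the 3 times, compared with 32.1%, 24% and 28.8% of all protein-coding genes. Itgb2, Itgam, Ptk2b, Pxn and Vav3 had one in every list, and Itgb3 and Src in none. For Itgb3 and Src this says only that no position reached the floor of the lists, whose lowest MITF peaks had 9, 10 and 8 tags. Their highest PU.1 sites, Itgb3-16 and Src-12, had scores of 133.1, 127.1 and 148.3 and of 129.6, 137.5 and 110.1. These were below the medians of PU.1 peaks with MITF in the 10 loci (152, 142 and 151). In OCs Itgb3-16 was above the median of such peaks in the whole list (137), and those of the 10 loci began at 38.2. Whether the PU.1 score bears on the missing MITF peaks was not tested. Itgav had MITF peaks in MPs and OCs, Gsn in the same 2 lists at Gsn-14, and Scin in MPs and at 36 h at Scin-3.

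The 36 h MITF list differed in form from the other 2. Its peaks were 150 to 1387 bp wide while those of MPs and OCs were all 150 bp, and the median MITF tag ratio of pairs was 1.7368 from MPs to 36 h against a library size ratio of 1.0672. A difference at 36 h and this difference in the lists cannot be told apart. The called MITF change in the 10 genes was at Ptk2b-22, which had 9, 81 and 14 MITF tags (scores 9.3, 78.8 and 16.0) in peaks of 150, 245 and 150 bp. It was called from MPs to 36 h (log2 fold change 2.37, 1.38 to 3.55, adjusted p = 9.685e-07) and from 36 h to OCs (-1.45, -2.39 to -0.62, adjusted p = 0.003635) by the exact binomial test. This was 1 of 7 member pairs in each comparison, against 15.2% and 9.66% of all MITF pairs. PU.1 tags at the same site were 121, 148 and 153, with no change called.

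At the other sites with MITF at every time the counts were lower and closer together. Itgam-19 had 24, 39 and 18 MITF tags, Itgb2-22 had 14, 30 and 15, Itgam-11 had 12, 24 and 8, and Pxn-9 had 11, 26 and 17. Vav3-3 had 25, 31 and 27, the closest raw counts of the 6, but not the closest relative to the median pair. On that scale its log2 fold change was -0.49 (-1.29 to 0.33) from MPs to 36 h. From 36 h to OCs it was 0.88 (0.08 to 1.67), which was not called. The same 2 values for Itgam-19 were -0.10 and -0.03. From MPs to OCs, the lists of equal peak width, 0 of the 11 member pairs were called (0% of all 2844), with log2 fold changes from -0.76 (Itgav-12) to 0.88 (Ptk2b-22). The test was the same exact test, by which 0 of the 11 also had an unadjusted p below 0.05. Over time, 11 of 16 OC MITF peaks overlapped a MP peak (68.8%, 44.4 to 85.8; whole list 64%) and 7 of 11 peaks at 36 h did (63.6%, 35.4 to 84.8; whole list 70.9%).

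**Figure D5:**
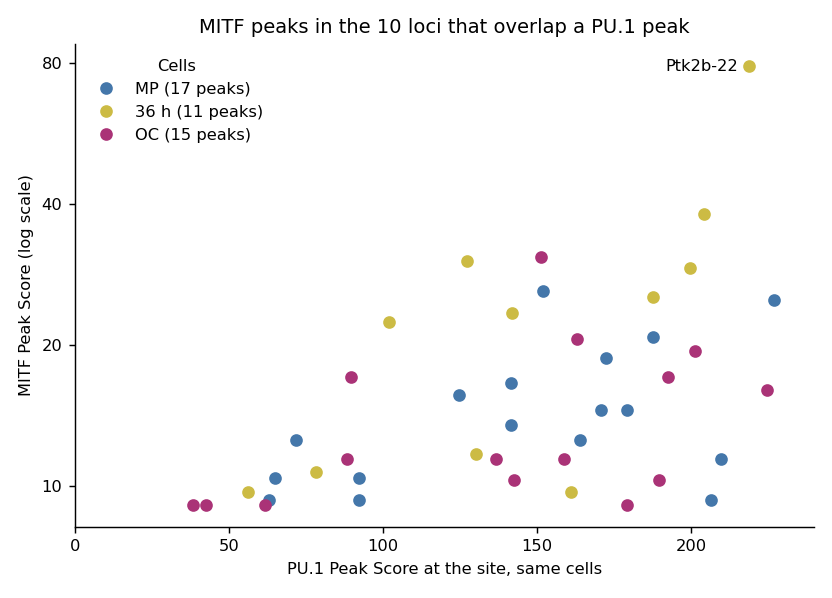
MITF Peak Score (log scale) against the PU.1 Peak Score of the same site and cells, for the 43 MITF peaks of the 10 loci that overlap a PU.1 peak, coloured by time. MITF peaks sit at PU.1 scores from 38.2 to 226.9, and Ptk2b-22 at 36 h lies above all others.

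The other genes of integrins, Src signalling and the actin ring had PU.1 peaks at a like density. Over 58 further genes the median was 10.03, 9.14 and 9.68 PU.1 peaks per 100 kb at the 3 times, and 29 of the 58 had a MITF peak in every list and 12 in none (17.8% and 59.8% of all protein-coding genes). From MPs to 36 h 5 of their 736 PU.1 pairs were called (0.679%, against 1.05% of all pairs), 2 higher (Actn4 and Pfn1) and 3 lower (Actr3, Itga4 and Itgb5), and from 36 h to OCs and from MPs to OCs 0 of 764 and 0 of 775. The site of Pfn1, profilin, had 33 tags in MPs and 83 at 36 h (log2 fold change 1.25, adjusted p = 0.004946), and that of Itgb5, another partner of alphav, had 56 and 17 (-1.80, adjusted p = 0.001079) by the exact binomial test. Of 52 MITF pairs 6 rose and 3 fell from MPs to 36 h (17.3%, against 15.2% of all MITF pairs), with the wider peaks of the 36 h list as above, among them a site of Zyx, the focal adhesion protein zyxin, with 13 and 100 tags (2.15, adjusted p = 2.258e-07 by the exact binomial test). From 36 h to OCs 6 of 44 MITF pairs fell and 0 rose (13.6%, against 9.66%), and from MPs to OCs 0 of 50 were called. Among the 58, Itgax and Itgad reach into the window of Itgam, so peaks such as those of Itgam-19 are counted in both sets of genes.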

How the data were processed

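The data are 7 ChIP-Seq peak lists, 1 per library. According to the study's methods and the labels' processing notes, the authors called bases with CASAVA 1.8, mapped reads to mm9 with Bowtie2 and called peaks with HOMER. The settings and other versions are not given in the sources used here. The authors deposited a Peak Score for each peak, a score that HOMER derives from the peak's tags and the library size. Scores were whole multiples of 1 value per list to within 0.05, which gave the tags. At HOMER's default scale, which is assumed, libraries had 3120000 to 10270000 tags.

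The 10 genes, the 58 further genes and the tests were chosen with earlier results of these data known. Named sites were, in each gene, the highest PU.1 site, the site nearest a start site, sites with MITF in 2 or more lists, and the largest changes from MPs to OCs among pairs of at least 30 tags in sum. Other sites in the text were chosen after their values were seen. The Src site that this rule takes as nearest a start site and as the largest rise is not reported here.

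Gene spans and transcripts came from GENCODE vM1 and sequence from NCBIM37, the mm9 assembly. Peaks were matched by an overlap of 1 bp or more, and shares were given 95% Wilson intervals. Tags of matched peaks were tested by an exact binomial test against the median ratio of all pairs. On tags simulated for PU.1 MPs and OCs (60099 pairs), the test recovered 197 of 200 pairs changed 4-fold at a mean of 30 tags or more and called 4 unchanged pairs. The simulated tags varied by counting error alone, and recovery of 2-fold changes or of changes at fewer tags was not simulated. PU.1 pairs of the 10 genes had medians of 43.5 to 47 tags in both peaks together. Intervals cover counting error only. Python 3.11.15, numpy 2.4.6, scipy 1.17.1 and matplotlib 3.10.9 were used.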

Additional observations from a re-analysis of the deposited data

How the results depend on the processing

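No paired analysis was possible because each condition has 1 library, and for the same reason no replicate could be left out. The number of PU.1 peaks in the 10 loci stayed within 1.5 times of the reported one under all alternatives but 1. With the gene bodies alone it was 125, 103 and 114 in MPs, at 36 h and in OCs. MITF peaks numbered 4, 7 and 3 at a score of at least 2 times the lowest of the list, and 5 at 36 h in the gene bodies alone. At that stricter score the share of MITF 36 h peaks with a MP peak was 28.6% and that of MITF OC peaks with a 36 h peak 100%. At the same score 100% of MITF OC peaks had a PU.1 peak. Within 50 bp of the site center in place of 100 bp, shares of sites with a motif were lower for GAGGAA (51.3%), TGANTCA (8.4%), CATGTG (7.98%) and CANNTG (39.5%), as the window is shorter. With the ratio of library sizes 2 PU.1 pairs (Itgb3-6 and Vav3-28) were called from MPs to 36 h, and 2 MITF pairs from 36 h to OCs (Ptk2b-22 and Itgam-11). At the stricter score 0 MITF pairs were called from MPs to 36 h, since the MP peak of Ptk2b-22 is below it. The direction of the log2 fold change was the same under both ratios at the sites named for their change. The comparison of summed tags under the ratio of library sizes was added after the data had been seen and moved 1 of 30 values beyond its interval. The depth limits the lists to peaks of 6 tags or more, and 34.3% to 41.8% of PU.1 peaks had at most 11 tags.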
